A study of Mus musculus with 3 samples.

Results

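In single-cell RNA sequencing of leukocytes from KP1 tumors, 3869 of 71909 kept barcodes (5.38%) carried transcripts of both macrophages and T cells. A barcode labels the contents of 1 droplet, and a UMI is 1 counted transcript molecule. A barcode was kept if it showed 200 or more genes and mitochondrial UMIs made up no more than 20%. Members held at least 5 UMIs of C1qa, C1qb and C1qc together and at least 6 UMIs of Cd3d, Cd3e, Cd3g, Trac, Trbc1 and Trbc2 together. These measured values chose the members, so levels of the 9 rule genes below are a description.

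KP1 is a mouse small-cell lung cancer line that lacks functional Rb and p53. Wild-type female B6129SF1/J mice carried subcutaneous KP1 tumors grown from 500000 cells and received cytokine intraperitoneally at 3 µg per dose on alternate days, from day 7 to day 19, when tumors were collected. One group received mono-IL-10, a monomeric IL-10 given alone and labelled Supermono-10, and the others IL-10/2-Trikine, a fusion that engages IL-10 and IL-2 receptor chains. The combination group also received 200 µg of anti-PD-1 (clone RMP1-14) with the first cytokine dose, again on days 11 and 15, and at collection. A passage of the protocol could mean that every group got the antibody, but sample titles mention it just for the combination, and groups here go by the titles. Live CD45+ cells were sorted after a density gradient, although one label field calls them T cells. Another passage dates the first KP1 dose earlier, and no source used here says how many mice each library pools. Each group was 1 library, so no difference was tested. Intervals are 95% intervals that cover counting error, not variation between mice or libraries. Those on UMI shares and UMI ratios take each UMI as independent. They leave out variation between barcodes and are too narrow where few barcodes hold many of the UMIs.

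C1qa, C1qb and C1qc encode the chains of complement component C1q, which tissue macrophages make and T cells do not. Cd3d, Cd3e and Cd3g encode signaling chains of the T cell receptor complex, and Trac, Trbc1 and Trbc2 the constant regions of its antigen-binding chains. Droplet methods give barcodes with both sets of transcripts when a pair of cells is caught together, when cells enter still attached to each other, when a macrophage has engulfed a T cell, or when free RNA enters a droplet. These origins cannot be told apart by UMI counts alone.

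Values below are in the order mono-IL-10, IL-10/2-Trikine and combination unless libraries are named. Members numbered 1667 of 22235, 1160 of 22707 and 1042 of 26967 kept barcodes, or 7.50% (7.15 to 7.85), 5.11% (4.83 to 5.40) and 3.86% (3.64 to 4.10). The share was thus highest in the mono-IL-10 library and lowest in the combination library. With limits scaled to depth it was 1.96%, 1.81% and 1.22%, in the same order but with the Trikine share at 0.921 times the mono-IL-10 share. Of barcodes that passed the C1q limit, members were 25.7%, 34.7% and 17.0%, so on that base the IL-10/2-Trikine library was highest. Of barcodes that passed the T cell limit they were 16.7%, 8.05% and 7.66%. The Trikine share divided by the mono-IL-10 share was therefore 0.681 (0.634 to 0.733) of kept barcodes, 1.35 (1.27 to 1.44) of C1q-passing barcodes and 0.482 (0.449 to 0.517) of T-passing barcodes. The combination over the IL-10/2-Trikine gave 0.756 (0.697 to 0.821), 0.488 (0.454 to 0.525) and 0.951 (0.878 to 1.03).

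**Figure D1:**
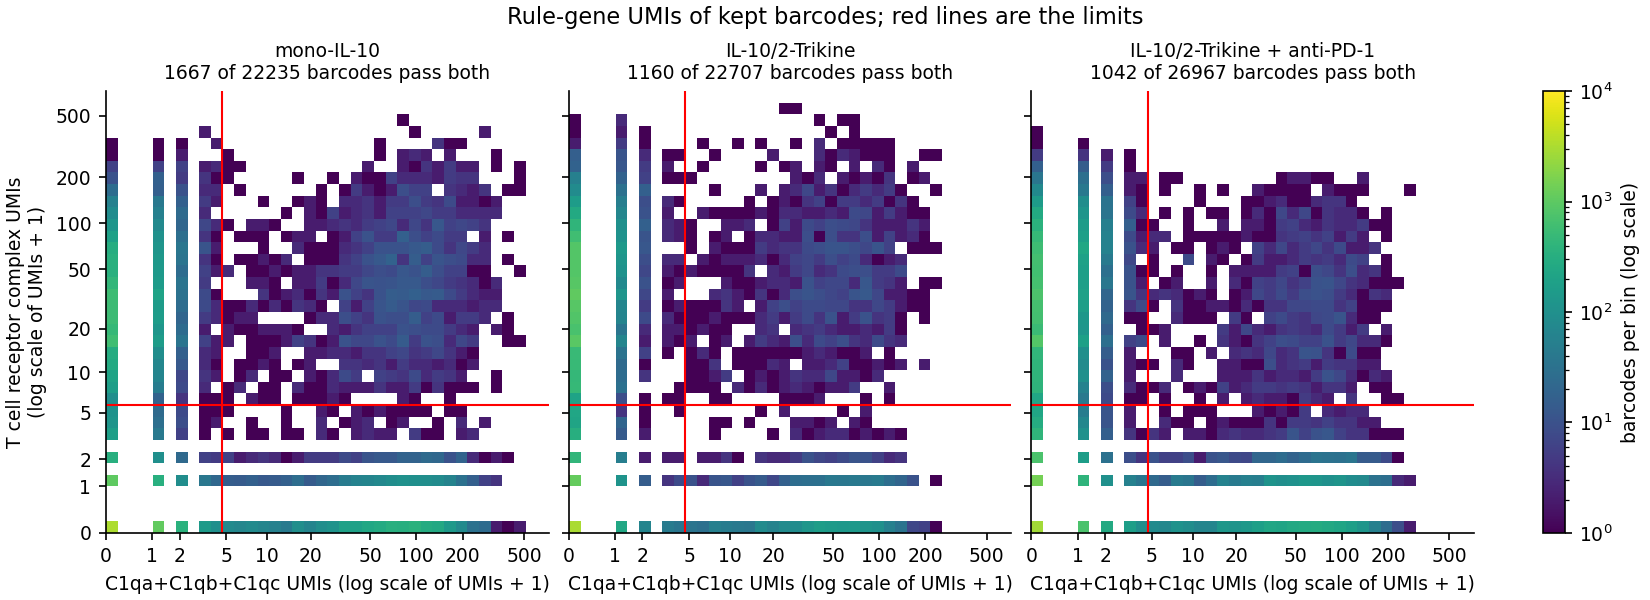
Each panel counts kept barcodes of 1 library by C1qa+C1qb+C1qc UMIs (x axis, log scale of UMIs + 1) and T cell receptor complex UMIs (y axis, same scale), with the number per bin as color on a log scale; red lines are the limits. The 1667, 1160 and 1042 members lie at the upper right, beyond both limits, and the single kinds lie along the axes.

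Single kinds served as the reference. Macrophage-only barcodes passed the C1q limit with at most 2 T cell UMIs and numbered 4761, 2142 and 4941; T-only barcodes passed the T cell limit with at most 2 C1q UMIs and numbered 8176, 13196 and 12414. Between members and single kinds, 66, 40 and 163 barcodes had 3 to 5 T cell UMIs with C1q passed. Another 134, 54 and 154 had 3 or 4 C1q UMIs with the T cell limit passed. These ranges are narrow, so the counts do not show a gap. Members with 6 to 10 T cell UMIs numbered 120, 79 and 140, and members with 5 to 10 C1q UMIs 72, 86 and 74. Just inside the T cell limit, at 6 or 7 UMIs, 35, 18 and 60 members had median depths of 7664, 7083 and 7522.5 UMIs. Just outside it, at 4 or 5 UMIs, 36, 19 and 74 barcodes had medians of 7850, 8719 and 7384.5. Just inside the C1q limit, at 5 or 6 UMIs, 28, 32 and 34 members had medians of 7344.5, 9047.5 and 7088, while the 134, 54 and 154 barcodes at 3 or 4 UMIs had 9669, 17257.5 and 10403.

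Members matched their name on genes that the rule did not use. A panel of macrophage markers and a panel of T cell markers without the rule genes both reached the 10th percentile of the matching single kind in 87.3% (85.7 to 88.9), 90.2% (88.3 to 91.8) and 87.6% (85.5 to 89.6) of members. In macrophage-only barcodes both panels reached it in 0.399%, 0.700% and 0.668%, and in T-only barcodes in 3.00%, 5.19% and 4.49%. Per member, the macrophage list of 24 genes, which holds Apoe and Csf1r, summed to 178, 148 and 117 UMIs, against 11.1, 14.4 and 11.1 in T-only barcodes. The T cell list of 20 genes, which holds Lck and Thy1, summed to 73.1, 70.7 and 46.6 UMIs, against 0.682, 0.743 and 0.867 in macrophage-only barcodes. No gene of either list was at 0 in the members of any library. Such counts are summed over all members of a library, so this does not set members apart from single kinds. Lck was found in 2.67%, 3.50% and 4.17% of macrophage-only barcodes, and Csf1r in 3.12%, 2.74% and 2.16% of T-only barcodes.

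Free RNA was measured in barcodes too shallow to hold cells. C1q genes made up 28.3, 8.76 and 18.2 and T cell rule genes 23.6, 30.1 and 33.5 of every 10000 free UMIs. Macrophage-only barcodes held a mean of 0.301, 0.287 and 0.423 T cell rule UMIs, and members held 60.5, 66.7 and 43.2. T-only barcodes held a mean of 39.5, 45.3 and 45.8, so in the mono-IL-10 and IL-10/2-Trikine libraries a member held more T cell rule UMIs than the average T-only barcode. Because macrophage-only barcodes were defined by at most 2 T cell UMIs, their low mean is in part set by that limit. In the same way the limit of at least 6 T cell UMIs in part sets the mean of members. Free RNA alone at the median depth of members would hold a mean of 35.0, 43.6 and 36.4 T cell rule UMIs. Members held medians of 41, 44 and 30. The part of free RNA in members was not tested. A few barcode sequences recurred between libraries: 137, 161 and 180 for the 3 pairs of libraries, 7 of them in all 3, with 26, 16 and 12 members among them. Without these the member shares were 7.48%, 5.11% and 3.87%.

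Depth was compared with what a macrophage and a T cell add up to. Every macrophage-only barcode was summed with every T-only barcode of the same library, which gives the depth of all possible pairs. Median UMIs of members were 14827, 14481.5 and 10859, against 6818, 5454.5 and 5449 in macrophage-only and 4484, 6515 and 4813.5 in T-only barcodes. The pairs had medians of 12266, 12758 and 11289 UMIs. Members were thus 1.21 (1.16 to 1.25), 1.14 (1.09 to 1.19) and 0.962 times the median pair. In the first 2 libraries members were deeper than the typical pair, and in the combination library they were close to it.

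With mono-IL-10, members exceeded pairs at the 10th percentile too, at 8063.4 against 7600 UMIs, whereas with the IL-10/2-Trikine these were 6846 against 6889. Above the 90th percentile of pairs were 25.9%, 19.2% and 9.98% of members, and below the 10th percentile 8.40%, 10.3% and 11.4%. The deepest members held 102958, 123049 and 54937 UMIs. Median detected genes were 4460, 4324.5 and 3766.5 in members, 2694, 2356 and 2381 in macrophage-only and 2027, 2507 and 2071 in T-only barcodes. Median mitochondrial shares were 1.67%, 1.41% and 1.38% in members, and 1.66%, 1.26% and 1.31% in macrophage-only barcodes.

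High T cell UMIs were more frequent in members than in T-only barcodes in the first 2 libraries. More than 100 T cell rule UMIs were found in 17.6%, 19.3% and 9.40% of members, against 5.59%, 7.87% and 9.32% of T-only barcodes. Those members had medians of 36089, 38970.5 and 25674.5 UMIs. More than 100 C1q UMIs were found in 37.2%, 13.3% and 18.9% of members and 29.2%, 9.52% and 16.8% of macrophage-only barcodes. A comparison added after these values were seen weighted the single kinds to the shares of members in 5 bins of T cell rule UMIs and 5 bins of C1q UMIs. The median pair then held 14104, 14942 and 11112 UMIs, and members were 1.05, 0.969 and 0.977 times that. Most of the excess depth was therefore gone at matched rule-gene UMIs, which are themselves part of depth. The top bin, above 100 T cell rule UMIs, has no upper limit and left T cell content unmatched. There the T cell marker panel had medians of 158.5, 153.5 and 118.5 UMIs in members and 127, 121 and 96 in T-only barcodes.

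**Figure D2:**
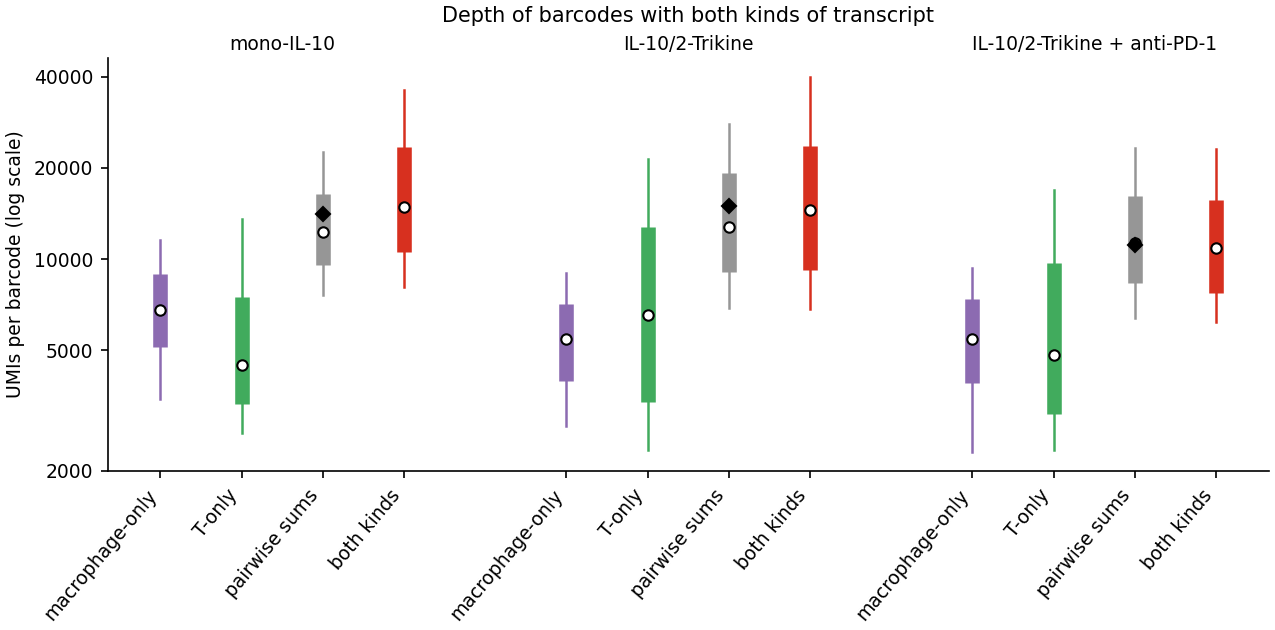
UMIs per barcode (y axis, log scale) in macrophage-only barcodes, T-only barcodes, all pairwise sums and members of each library; boxes span the 25th to 75th percentile, lines the 10th to 90th, circles mark medians and diamonds the weighted pair medians. Members center at 14827, 14481.5 and 10859 UMIs beside pair medians of 12266, 12758 and 11289.

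Scrublet, which scores each barcode by its likeness to sums of barcodes, called 91.7% (90.2 to 92.9) of mono-IL-10 members and 91.1% (89.3 to 92.7) of Trikine members doublets. It called 6.51% and 6.35% of macrophage-only and 9.88% and 17.6% of T-only barcodes. In the combination library its automatic threshold of 0.550 left 1 call among 26967 barcodes, so the caller did not work there. A score at or above the library's own 90th percentile was held by 72.6%, 73.1% and 87.6% of members. The same was true of 5.08%, 3.87% and 5.00% of macrophage-only and 6.37%, 9.06% and 8.05% of T-only barcodes. The caller reads the same counts as the rule, so these shares are a description.

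Member counts were set against the product of the shares of C1q-passing and T-passing barcodes. This product assumes that both sets of transcripts occur in barcodes independently. Members numbered 0.572 (0.545 to 0.600), 0.547 (0.516 to 0.579) and 0.336 (0.316 to 0.357) times that product. The combination library was thus lowest on this scale too. Droplets with single cells seldom carry both kinds, and members count in both shares. The product is thus not the count that random capture would give. Ratios below it do not show that the cells met less often than at random.

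The T cell side of members was read first from the coreceptors, Cd4 of helper and regulatory T cells and Cd8a and Cd8b1 of cytotoxic T cells. Members held 1.66, 2.56 and 1.94 Cd4 UMIs per barcode and 2.90, 1.44 and 0.988 Cd8a UMIs. Cd8a was thus above Cd4 with mono-IL-10 and below it in both other libraries. Cd8b1 stood at 4.37, 2.93 and 1.80 UMIs per member, above Cd4 in the first 2 libraries and below it in the combination library. Which Cd8 gene is set against Cd4 thus decides the order in the Trikine library. Of Cd8a and Cd4 UMIs together, Cd8a made up 63.7% (62.6 to 64.8), 36.0% (34.6 to 37.4) and 33.8% (32.1 to 35.5) in members and 66.6%, 49.1% and 39.4% in the summed single kinds. Members minus sums came to -2.89 points (-3.98 to -1.80), -13.1 points (-14.5 to -11.7) and -5.56 points (-7.24 to -3.85). Members were shifted toward Cd4 in each library, and by most with the IL-10/2-Trikine. Weighted single kinds gave -3.54, -10.8 and -5.93 points, and Cd8b1 in place of Cd8a gave -3.84, -15.4 and -4.35 points.

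Against the summed single kinds, Cd4 per barcode was 1.61, 2.14 and 1.0 times as high in members, and Cd8a 1.42, 1.25 and 0.789 times. With weighted single kinds Cd4 was 1.18, 1.56 and 1.07 times and Cd8a 1.01, 0.995 and 0.831 times as high. The IL-10/2-Trikine members thus held an excess of Cd4 that weighting reduced but did not remove, while Cd8a came to the level of the sum. A UMI of Cd4 without Cd8a or Cd8b1 was held by 20.2%, 31.5% and 30.3% of members and 22.4%, 22.8% and 33.4% of T-only barcodes. The reverse, Cd8a or Cd8b1 without Cd4, was held by 47.5%, 29.1% and 31.9% of members and 56.7%, 41.1% and 38.7% of T-only barcodes.

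Cd4 and Cd8 transcripts occurred together in 22.7% (20.7 to 24.8), 23.4% (20.9 to 25.9) and 15.5% (13.3 to 17.8) of members, against 7.28%, 9.23% and 9.95% of T-only barcodes. In T-only barcodes weighted to the T cell UMIs of members the share was 12.1%, 14.3% and 9.27%. Such members were deep, with medians of 27140, 28489 and 17344 UMIs. Mature T cells as a rule keep only 1 of the coreceptors. In macrophage-only barcodes the share was 0.168%, 0 of 2142 barcodes (exact upper limit 0.172%) and 0.121%.

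Foxp3, the lineage factor of regulatory T cells, was detected in 270 of 1667, 245 of 1160 and 169 of 1042 members, or 16.2% (14.5 to 18.1), 21.1% (18.8 to 23.6) and 16.2% (14.0 to 18.6). In T-only barcodes the share was 5.38% (4.90 to 5.89), 10.5% (9.96 to 11.0) and 10.0% (9.48 to 10.5). Macrophage-only barcodes, which should lack Foxp3, gave 0.231%, 0.280% and 0.324%. All pairwise sums of single kinds would give 5.60%, 10.7% and 10.3%, so Foxp3 was found in members more often than in sums in each library. Weighting T-only barcodes to the T cell UMIs of members gave 7.94%, 13.2% and 9.49%, which still lay under the members' intervals.

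Per barcode, members held 0.406, 0.512 and 0.364 Foxp3 UMIs, or 3.14 (2.85 to 3.46), 2.18 (2.00 to 2.38) and 1.53 (1.38 to 1.71) times the summed single kinds. With weighted single kinds the ratios were 1.95, 1.67 and 1.62. Foxp3-positive members were deep, with medians of 25223, 22569 and 14952 UMIs, against 10797, 10271.5 and 9944 for Foxp3-positive T-only barcodes. After thinning every barcode to 1000 UMIs, Foxp3 was found in 1.14%, 1.98% and 2.30% of members and 1.14%, 2.77% and 2.59% of T-only barcodes. A thinned member spends part of its 1000 UMIs on macrophage transcripts, and at this depth the share was not higher than in T-only barcodes. Among barcodes with Cd4 and without Cd8 transcripts, Foxp3 was found in 18.5% (14.4 to 23.0), 26.6% (22.1 to 31.4) and 20.9% (16.5 to 25.8) of members and 9.99%, 20.1% and 14.2% of T-only barcodes. Weighted, those T-only shares were 11.9%, 21.2% and 14.1%.

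**Figure D3:**
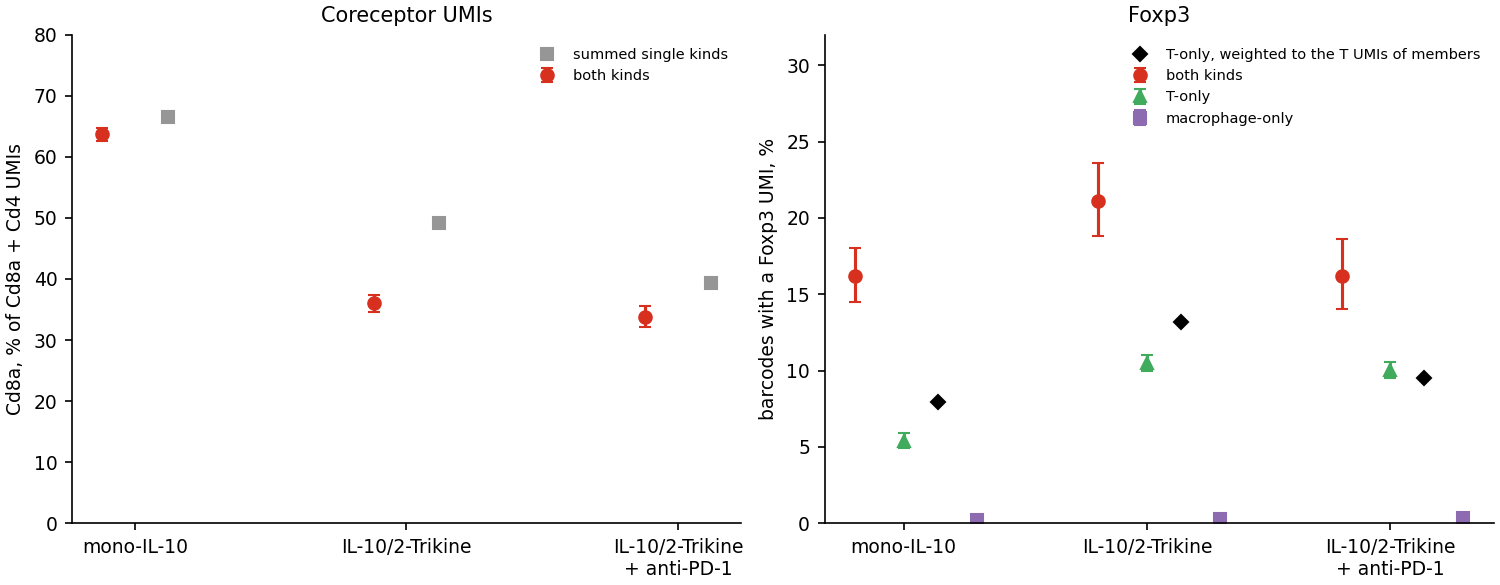
Left, Cd8a as a percentage of Cd8a plus Cd4 UMIs in members (circles) and summed single kinds (squares); right, percentage of barcodes with a Foxp3 UMI in members (circles), T-only barcodes (triangles), weighted T-only barcodes (diamonds) and macrophage-only barcodes (squares), by library; bars are exact 95% intervals for counting error. Members lie below the sums for Cd8a and above T-only barcodes for Foxp3 in each of the 3 libraries.

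Pdcd1, which encodes PD-1, was detected in 44.6% (42.2 to 47.1), 60.3% (57.4 to 63.1) and 56.2% (53.2 to 59.3) of members. T-only barcodes gave 32.4%, 44.8% and 55.1%, macrophage-only barcodes 4.16%, 4.25% and 5.12%, and pairwise sums 35.2%, 47.1% and 57.4%. Members were thus above the sums in the first 2 libraries, and in the combination library the sum lay inside their interval. Members held 1.39, 2.45 and 1.86 Pdcd1 UMIs, which was 1.57, 1.63 and 0.938 times the sum and, with weighted single kinds, 1.06, 1.23 and 0.989 times. Icos, a costimulatory receptor of activated CD4 T cells, was 1.49, 1.72 and 0.983 times the sum. Pdcd1 was thinned to 6.30%, 10.9% and 11.4% of members and 9.64%, 13.3% and 21.4% of T-only barcodes.

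The T cell genes of members were compared with the sums as a class. A gene was called T-weighted when its mean UMIs in T-only barcodes were at least 10 times those in macrophage-only barcodes, and macrophage-weighted in the reverse case. T-weighted genes had a median ratio to the sum of 1.52, 1.41 and 1.0 over 497, 588 and 500 genes. Macrophage-weighted genes had 1.18, 1.11 and 0.998 over 614, 450 and 549 genes. All measured genes had 1.34, 1.23 and 0.983 over 10943, 10922 and 10486 genes. In the first 2 libraries members thus held more of both classes than the sum, T-weighted genes most, and in the combination library neither class differed from the sum in its median. Weighting brought T-weighted genes to 1.17, 1.12 and 1.05 and macrophage-weighted genes to 1.10, 1.06 and 0.959. Of all measured genes 97.3%, 94.8% and 42.7% lay above the sum, and 89.0%, 67.9% and 46.1% above the weighted sum, the background for each list count here.

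Of all measured genes, 118 (1.08%) in the mono-IL-10, 123 (1.13%) in the IL-10/2-Trikine and 9 (0.0858%) in the combination library lay at least 2-fold above the sum. At least 2-fold below it lay 13 (0.119%), 29 (0.266%) and 37 (0.353%). Weighted single kinds gave 17, 32 and 10 above and 11, 30 and 33 below, and scaling each kind by its class median gave 13, 23 and 9 above and 27, 50 and 37 below. Class scaling thus turned the balance of the first 2 libraries toward genes below the sum. On the unweighted sums, T-weighted genes made up 59, 72 and 3 of those above and 0, 1 and 4 of those below; without the barcode that held most UMIs of each gene, a step added after these values were seen, 48, 54 and 1 remained above. Macrophage-weighted genes made up 2, 7 and 1 of those above and 5, 0 and 16 of those below. T-weighted genes at least 2-fold above the sum in both of the first 2 libraries included Foxp3, the costimulatory receptors Tnfrsf4 and Tnfrsf9, the chemokine receptor Ccr8, the cytokine Csf2 and the chemokines Xcl1 and Ccl1. After weighting, Foxp3 and Tnfrsf4 were no longer past 2-fold in either library, and without its leading barcode Xcl1 was at 1.91 times the sum with the IL-10/2-Trikine. In the combination library the 3 were Itgb8, Il13 and Il4. Single barcodes held 36.9% of the 149 Il13 UMIs and 78.2% of the 216 Il4 UMIs, and without them Il13 was at 1.41 and Il4 at 1.62 times the sum. The 4 T-weighted genes below the sum there were the immunoglobulin genes Iglc1, Jchain, Igha and Igkc.

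Regulatory T cell genes stood above the sum as a list. Of 11 genes, 11, 11 and 10 were above it, with a median log2 ratio of 1.09, 0.95 and 0.23 beside 0.42, 0.30 and -0.02 over all genes. With weighted single kinds 11 of 11 were above it in each library, with medians of 0.55, 0.52 and 0.32. Il2ra, the high-affinity IL-2 receptor chain, was 2.53, 1.65 and 1.11 times the sum, and Ikzf2, a transcription factor abundant in regulatory T cells, 2.11, 1.52 and 1.19 times. Weighting gave Il2ra 1.48, 1.15 and 1.18 times and Ikzf2 1.41, 1.17 and 1.25 times the sum. Ctla4, an inhibitory receptor, was 1.84, 1.61 and 0.994 times the sum and 1.28, 1.25 and 1.06 times when weighted. These genes are also used by activated T cells without Foxp3.

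Inhibitory receptor genes had medians of 0.63, 0.56 and -0.11, with 10, 10 and 1 of 10 above the sum beside 96.2%, 91.3% and 50.2% of T-weighted genes, whose medians were 0.60 and 0.50 in the first 2 libraries. Weighting gave the list medians of 0.11, 0.26 and -0.04. Cytotoxic genes had 0.44, 0.31 and -0.11, and 0.04, 0.13 and -0.07 when weighted. Gzmb, which encodes the protease granzyme B, was 37.5, 45.4 and 27.8 UMIs per member and 1.59, 1.22 and 0.870 times the sum. CD4 helper genes had medians of 0.53, 0.98 and -0.03, and 0.21, 0.59 and 0.05 when weighted, so the IL-10/2-Trikine members kept the largest excess. There Cd40lg, the helper ligand for CD40, was 1.97 times (1.77 to 2.19) and Il21, a helper cytokine, 2.81 times (2.33 to 3.39) the sum. Ifng, the cytokine interferon-gamma, was 1.84, 2.46 and 1.30 times the sum. Naive and memory genes had medians of 0.26, 0.23 and 0.08, and 0.21, 0.11 and 0.11 when weighted.

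Single T-weighted genes were named by their distance from the class median in the middle one of the 3 libraries, on the same side in all 3. Of 297 such genes, 81 lay above and 87 below the median in all 3. The highest were Dusp14, a phosphatase gene, at 2.15, 2.26 and 1.58 times the sum, Penk, which encodes proenkephalin, at 1.77, 2.88 and 1.55, and Foxp3. Izumo1r, the folate receptor 4 gene of regulatory and helper T cells, was 2.07, 2.18 and 1.72 times the sum, and Tnfrsf4, which encodes OX40, 2.69, 2.17 and 1.27 times. With weighted single kinds Izumo1r was 1.57, 1.72 and 1.79, Tnfrsf4 1.63, 1.53 and 1.35, and Dusp14 1.38, 1.53 and 1.69 times the sum. Penk was 1.16, 1.85 and 1.66 times and was the one among these 5 that did not stay above the weighted class median in each library.

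The lowest T-weighted genes were Klra7, S1pr1, Gm41331, Nrarp and 1500009L16Rik. Klra7, an inhibitory Ly49 receptor of NK cells and some T cells, held 0.269, 0.950 and 0.574 UMIs per member and was 0.957, 0.610 and 0.876 times the sum. S1pr1, the receptor with which lymphocytes leave tissue, held 0.725, 0.847 and 0.546 UMIs and was 0.974, 0.819 and 0.910 times the sum. Nrarp, a regulator of Notch signaling, was 1.01, 0.898 and 0.924 times, Gm41331 0.852, 0.931 and 0.789 times and 1500009L16Rik 1.44, 0.849 and 0.678 times the sum. All 5 also lay below the class median with weighted single kinds in each library.

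**Figure D4:**
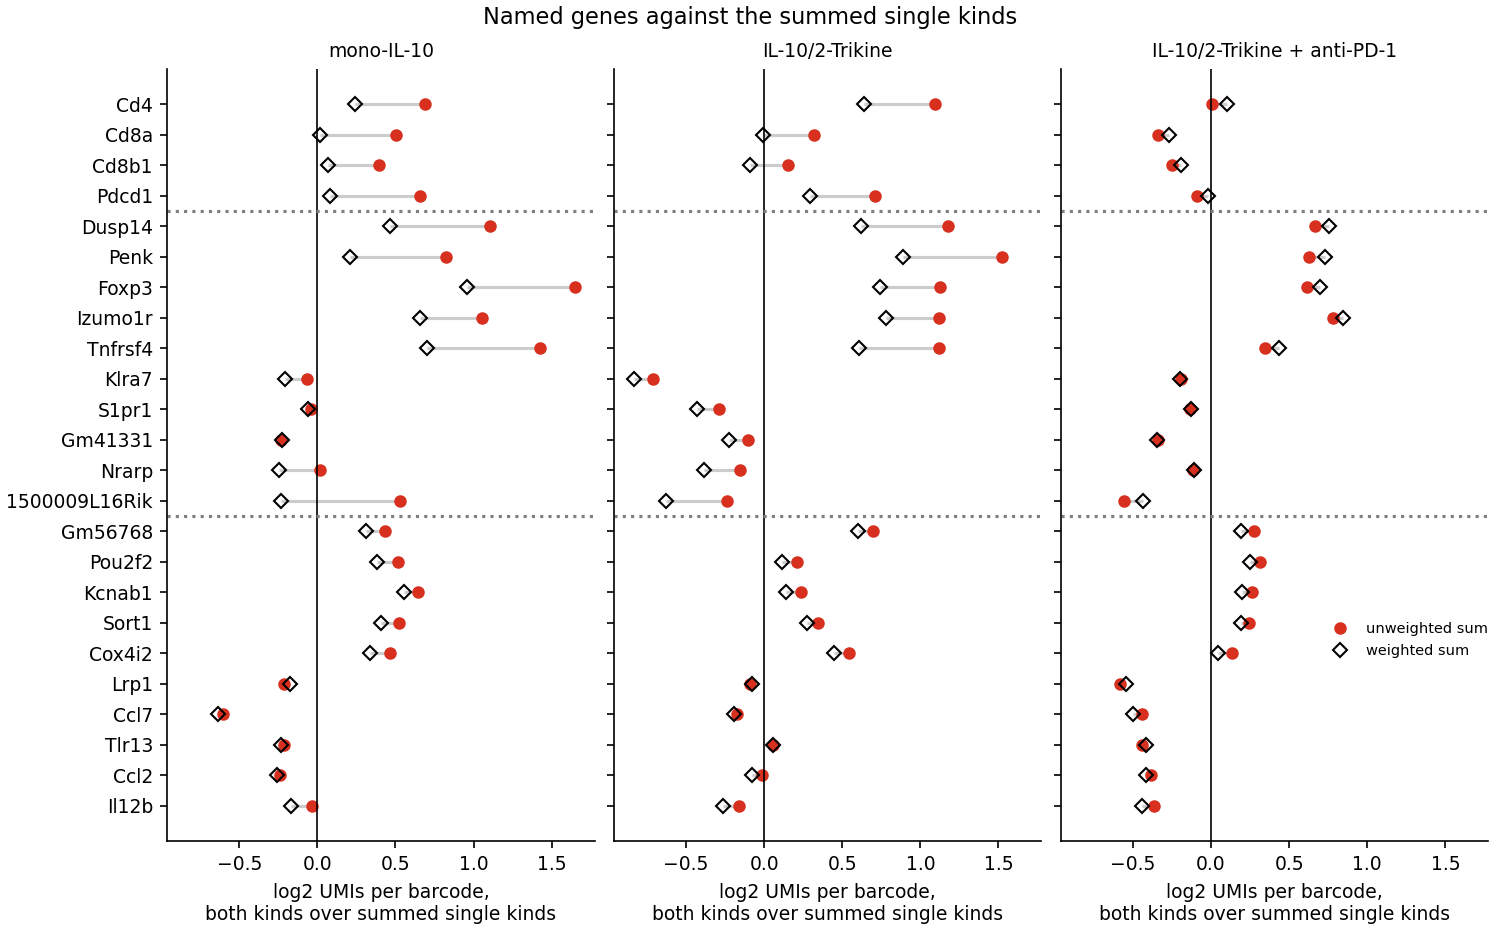
Log2 ratio of UMIs per barcode in members to the summed single kinds (x axis) for coreceptors and Pdcd1 (top), named T-weighted genes (middle) and named macrophage-weighted genes (bottom) in each library; circles use all single-kind barcodes and diamonds the weighted ones. Foxp3, Izumo1r and Tnfrsf4 lie to the right of 0 with both in all 3 libraries, and Ccl7 and Lrp1 to the left.

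Of 24 macrophage genes, 18, 23 and 3 were above the sum, with median log2 ratios of 0.10, 0.21 and -0.14, all below the medians over all genes. Macrophage-weighted genes had medians of 0.24, 0.16 and -0.003, with 87.9%, 80.4% and 49.7% above the sum. On that base the IL-10/2-Trikine list lay above and the others below. Of the 24 genes, however, 18, 16 and 19 were macrophage-weighted. With each gene set against the median of its own class, the list medians were -0.17, -0.03 and -0.12. When weighted, 11, 20 and 1 were above, with medians of -0.01, 0.15 and -0.18 beside 0.16, 0.07 and -0.01 over all genes. The Trikine list was then above all genes too. Apoe, which carries lipids, held 2.53, 2.61 and 1.72 UMIs per member and was 0.832, 1.58 and 0.760 times the sum. Mrc1, the mannose receptor, was 0.708, 0.997 and 0.433 times and Mertk, a receptor for apoptotic cells, 1.01, 1.85 and 0.681 times. Csf1r, the receptor for the macrophage growth factor CSF1, was 1.02, 1.21 and 0.811 times the sum. Ms4a7 stayed close to it at 1.14, 1.10 and 1.06 times.

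Resident and repair genes lay above the sum with the IL-10/2-Trikine and below it with the combination, while with mono-IL-10 the side depended on the measure. Of the 15 genes on this list 8, 9 and 8 were abundant enough to measure, and their median log2 ratios were -0.17, 0.78 and -0.57. Above the sum were 3, 7 and 2 of them. The list's summed UMIs were 1.09, 1.56 and 0.804 times the sum. Of the measured genes 2, 3 and 4 were macrophage-weighted, so others on the list were also found in T-only barcodes. Arg1, an enzyme of arginine breakdown, held 0.0978, 0.846 and 0.333 UMIs per member and was 0.718 (0.606 to 0.850), 2.19 (2.00 to 2.39) and 0.655 (0.586 to 0.733) times the sum. Ccl8, a monocyte-attracting chemokine, was 0.299, 1.72 and 0.710 times the sum. Weighting left the list medians at -0.12, 0.67 and -0.58 and the summed UMIs at 1.03, 1.46 and 0.805 times the sum.

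Chemokines that draw T cells and monocytes had the same order of medians, at -0.32, 0.44 and -0.44 over 12, 13 and 11 measured genes of 14, and share Ccl8 with the resident list. Cxcl9, a ligand of the chemokine receptor Cxcr3, held 1.95, 2.80 and 2.48 UMIs per member and was 0.684, 1.37 and 0.797 times the sum. Cxcl10, a ligand of the same receptor, was 1.03, 1.37 and 0.481 times. Inflammatory monocyte genes, of which 1, 1 and 4 of 12 were macrophage-weighted, had medians of -0.26, -0.01 and -0.51. Saa3, an acute-phase gene, was 0.530, 0.828 and 0.381 times and Lyz2, the lysozyme gene of myeloid cells, 0.869, 1.03 and 0.550 times the sum. Both were lowest against the sum in the combination library.

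Antigen presentation genes had medians of 0.23, 0.39 and -0.05, beside 0.42, 0.30 and -0.02 over all genes. When weighted, they had 0.11, 0.31 and -0.09 beside 0.16, 0.07 and -0.01. On both measures the list lay above all genes with the IL-10/2-Trikine and below them in both other libraries. H2-Ab1, an MHC class II chain, held 30.6, 25.7 and 18.0 UMIs per member and was 1.04, 1.23 and 0.805 times the sum. Cd274, which encodes the PD-1 ligand PD-L1, held 3.54, 3.35 and 2.72 UMIs and was 1.16, 1.40 and 0.992 times the sum. Efferocytosis and lipid genes, active when macrophages clear dead cells, had medians of 0.29, 0.38 and 0.01 over 15, 16 and 13 measured genes of 20. The medians over all genes were 0.42, 0.30 and -0.02. When weighted, the list had 0.13, 0.30 and -0.05 beside 0.16, 0.07 and -0.01 over all genes. With the IL-10/2-Trikine 14 of 16 genes were then above the weighted sum, beside 67.9% of all genes.

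Macrophage-weighted genes at least 2-fold above the sum with the IL-10/2-Trikine were Vcam1, Mmp13, Ccl24, Atp6v0d2, Igf1, Apol7c and Gm15056. Vcam1, an adhesion molecule, was 2.01 times and Ccl24, an eosinophil-attracting chemokine, 2.14 times the sum. A single barcode held 29.5% of the 1869 Ccl24 UMIs, and without the leading barcodes Ccl24 was at 1.51, Mmp13 at 1.86 and Vcam1 at 1.92 times the sum. Those above with mono-IL-10 were Gpc5 and Slc25a21, and Gm56592 was the one with the combination; without their leading barcodes Gpc5 was at 1.98 and Gm56592 at 1.86 times the sum. The 16 below with the combination included Il1a at 0.244, Cxcl11 at 0.288, Inhba at 0.359, Mmp12 at 0.396, C5ar1 at 0.428 and Mrc1. With mono-IL-10 the 5 below were Col3a1, Ccl8, Mmp12, Gm15056 and Colec12. Leaving out the leading barcode can only lower a gene that lies below the sum, so that step cannot test these genes. Mmp12 went to 0.214 with the combination, where 1 barcode held 46.0% of its UMIs. With mono-IL-10 Mmp12 went to 0.239, Ccl8 to 0.197 and Gm15056 to 0.298.

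By the same rule as for T-weighted genes, 53 of 333 macrophage-weighted genes lay above and 58 below the class median in all 3 libraries. The highest were Gm56768, Pou2f2, Kcnab1, Sort1 and Cox4i2. Pou2f2, the transcription factor OCT2, held 8.32, 4.48 and 5.14 UMIs per member and was 1.43, 1.15 and 1.24 times the sum, and Sort1, the sorting receptor sortilin, was 1.44, 1.27 and 1.19 times. The lowest were Lrp1, a receptor that takes up lipoproteins and cell debris, at 0.863, 0.940 and 0.668 times, and the monocyte chemokines Ccl7, at 0.659, 0.887 and 0.736, and Ccl2, at 0.848, 0.990 and 0.765 times. Tlr13, which senses bacterial RNA, was 0.861, 1.04 and 0.736 times, and Il12b, the p40 chain of IL-12, 0.978, 0.895 and 0.777 times the sum. All 10 kept their side of the class median with weighted single kinds.

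**Figure D5:**
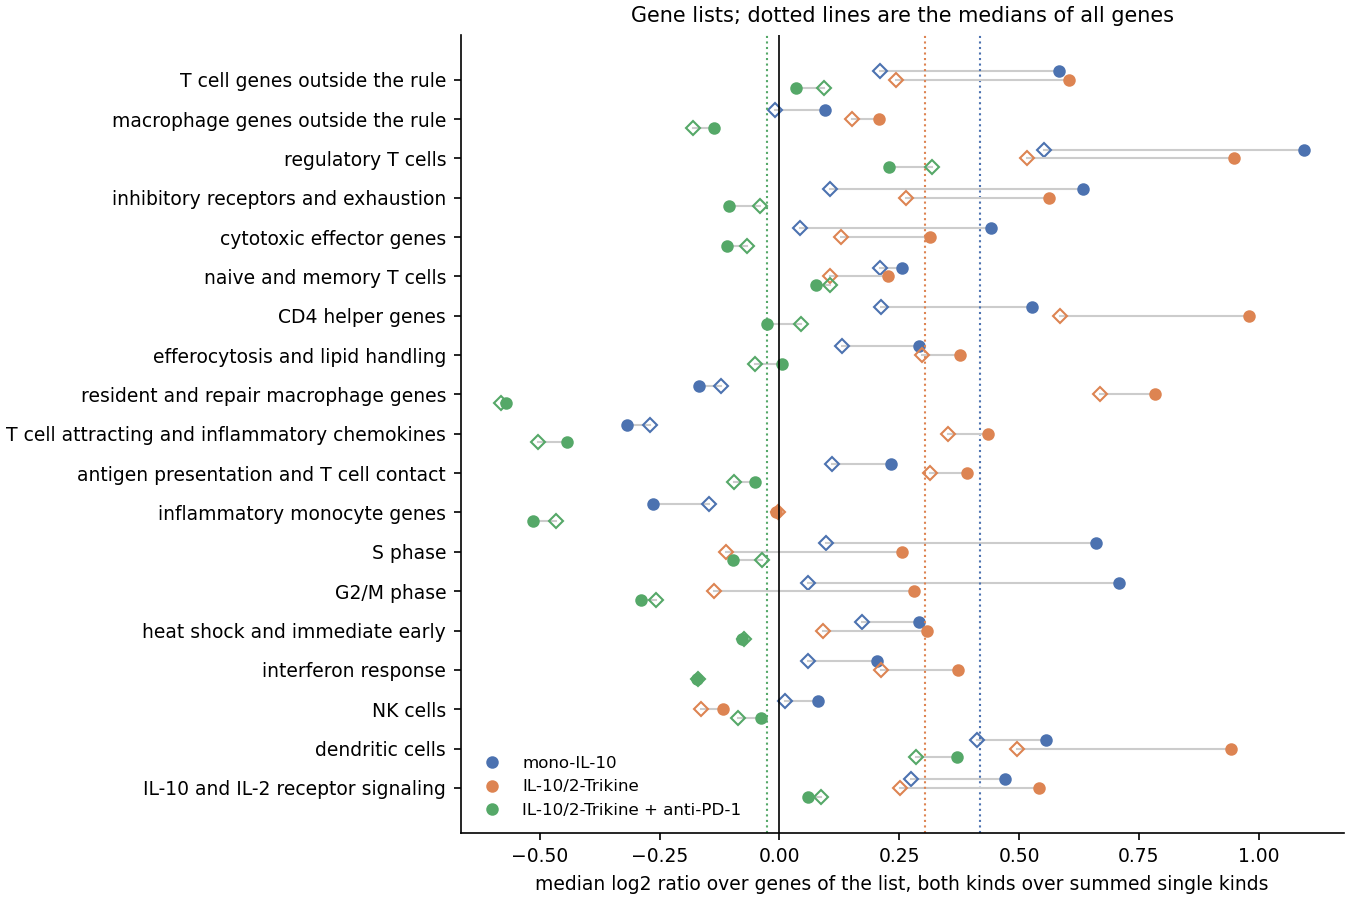
Median log2 ratio of members to the summed single kinds (x axis) for each gene list (y axis) and library (color); filled circles use all single-kind barcodes, open diamonds the weighted ones, and dotted lines mark the medians over all genes (0.42, 0.30 and -0.02). Regulatory T cell genes lie right of the all-gene median in each library, and resident macrophage genes and chemokines lie at 0.78 and 0.44 with the IL-10/2-Trikine but below 0 in both other libraries.

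On the unweighted sums, beside medians over all genes of 0.42, 0.30 and -0.02, cell cycle genes were higher with mono-IL-10, near them with the IL-10/2-Trikine and lower with the combination. G2/M genes had medians of 0.71, 0.28 and -0.29, with 20, 20 and 0 of 20 above the sum beside 97.3%, 94.8% and 42.7% of all genes, and S phase genes 0.66, 0.25 and -0.10. With weighted single kinds the medians were 0.06, -0.14 and -0.26 for G2/M and 0.10, -0.11 and -0.04 for S phase. Over all genes they were then 0.16, 0.07 and -0.01, so both lists lay below all genes in each library. Mki67, a marker of dividing cells, held 5.29, 7.63 and 3.18 UMIs per member and was 1.47, 1.13 and 0.827 times the sum. Interferon response genes had medians of 0.20, 0.37 and -0.17 and heat shock and immediate early genes 0.29, 0.31 and -0.08. The receptor list held Il2rb, the shared IL-2 and IL-15 receptor chain, at 2.07, 1.73 and 1.18 times the sum, and Il10ra, the IL-10 binding chain, at 1.19, 1.06 and 0.931 times; over 18 genes its medians were 0.47, 0.54 and 0.06.

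Marker lists of other cells summed to fewer UMIs per member than the macrophage and T cell lists. Against the sum, however, dendritic genes lay above the all-gene median in each library. NK genes summed to 2.56, 4.87 and 2.90 UMIs per member, with medians of 0.08, -0.12 and -0.04. Dendritic genes summed to 3.37, 2.78 and 2.05 UMIs, with medians of 0.56, 0.94 and 0.37, and 8, 8 and 5 of 8, 8 and 5 measured genes were above the sum. Weighted, those medians were 0.41, 0.50 and 0.29, beside 0.16, 0.07 and -0.01 over all genes. B cell genes summed to 6.55, 3.30 and 2.70 UMIs. With mono-IL-10 all 6 measured B cell genes were above the sum, as were 97.3% of all genes, and their median of 0.37 was below the 0.42 over all genes. When weighted their median was 0.35 beside 0.16 over all genes. Cd79a was found in 6.72% of members against 4.57% of pairwise sums. Elsewhere 2 and 3 B cell genes were measured, with medians of -0.07 and 0.13. Neutrophil genes summed to 1.05, 1.21 and 0.630, and KP1 tumor genes to 0.439, 0.492 and 0.363. The part of dendritic cells in the values above was not tested.

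Members were last compared between libraries, in CPM, a gene's UMIs scaled to the same total of member UMIs in each library. The comparisons ask what the IL-2 arm of the Trikine, and then PD-1 blockade, goes with, and both use the IL-10/2-Trikine library. With the IL-10/2-Trikine, 407 of 14455 genes (2.82%) were at least 2-fold higher and 720 (4.98%) at least 2-fold lower than with mono-IL-10. With the combination, 449 of 13627 genes (3.29%) were at least 2-fold higher and 285 (2.09%) at least 2-fold lower than with the IL-10/2-Trikine. Each value compares 1 library with 1 library, so treatment cannot be told apart from other differences between them.

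With the IL-10/2-Trikine against mono-IL-10, the highest named genes were Ccl24, Mmp12, Ccl8, Spp1 and 1500009L16Rik. Ccl24 was at 82.3 against 0.730 CPM, the matrix protease gene Mmp12 at 62.1 against 3.02, Ccl8 at 87.2 against 6.79, and Spp1, which encodes osteopontin, at 95.1 against 18.9. In macrophage-only barcodes Ccl24 was at 121 against 8.11, Mmp12 at 104 against 21.4, Ccl8 at 167 against 58.2 and Spp1 at 45.5 against 13.8 CPM, higher in the same library for each. Spp1 was also higher in T-only barcodes, at 59.0 against 18.0 CPM, so it was not a macrophage gene alone here. A single barcode held 65.0% of the Spp1 UMIs with mono-IL-10; without the leading barcode of each library the Spp1 ratio was 11.0 in place of 5.04. 1500009L16Rik, a T-weighted gene here, was at 66.3 against 16.1 CPM. Resident and repair genes had a median log2 difference of 1.94 in members, with 6 of 10 at least 2-fold higher, and 1.44 in macrophage-only barcodes. Neutrophil markers had a median of 1.24 in members, with 7 of 8 at least 2-fold higher. NK markers had 1.02, with 4 of 8 at least 2-fold higher and 1 lower. The part of neutrophils and NK cells in these values was not tested.

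The lowest named genes in that comparison were Ighg1, Bank1, Igkc, Sox5 and Aff3. Ighg1, an immunoglobulin heavy chain, had 0 UMIs with the IL-10/2-Trikine against 98.7 CPM with mono-IL-10, at least 748-fold lower when 3 UMIs stand for 0. However, 96.2% of the 3110 Ighg1 UMIs came from 1 barcode, without which the level was 3.72 CPM and the bound 28.2-fold. Igkc was at 144 against 503 CPM, and at 31.8 against 196 without the leading barcodes, which held 78.0% and 61.1% of its UMIs. Bank1, an adaptor best known from B cells, was at 17.5 against 64.5 CPM, and macrophage-only barcodes of the IL-10/2-Trikine library held 53.4 CPM of it. Aff3 was at 30.8 against 78.7 and Sox5, a transcription factor, at 122 against 332 CPM. Sox5 was a macrophage gene here, at 433 against 694 CPM in macrophage-only and 2.91 against 25.7 in T-only barcodes. B cell markers moved the same way: 5 of 7 measured were at least 2-fold lower. Their part in these values was not tested.

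With the combination against the IL-10/2-Trikine, the lowest named genes included Mmp12, Spp1 and 1500009L16Rik. The IL-10/2-Trikine library is in both comparisons, so a gene high in that library alone is highest in one and lowest in the other. Mmp12 was at 10.3 against 62.1, Spp1 at 25.2 against 95.1, Saa3 at 13.9 against 56.6, 1500009L16Rik at 30.3 against 66.3 and Igkc at 22 against 144 CPM. Without the leading barcodes Igkc was at 18.5 against 31.8 CPM, no longer past 2-fold, and Mmp12 was at 5.57 against 54.9 CPM. The highest included Oasl1, an interferon-induced gene, at 91.9 against 37.4, Sox5 at 292 against 122, Ptprm at 215 against 97.1 and Slc37a2 at 64.0 against 30.1 CPM. Resident and repair genes had a median of -1.11 in members and -0.08 in macrophage-only barcodes, and chemokines -0.69 and -0.41. Neutrophil markers had a median of -1.65 in members, with 5 of 6 measured at least 2-fold lower, and dendritic markers -0.92, with 5 of 10. B cell markers had 1.06, with 4 of 6 at least 2-fold higher. The part of these other cells in the values was not tested. Interferon response genes had 0.55, with 17 of 20 above 0, beside 0.48 in macrophage-only and 0.70 in T-only barcodes.

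Cell cycle lists were highest in the IL-10/2-Trikine members. S and G2/M genes had medians of 0.63 and 0.56 in Trikine over mono-IL-10 members, 20 of 20 above 0 in each, and -0.45 and -0.77 with the combination over the IL-10/2-Trikine, 0 of 20 above 0 in each. The median log2 difference over all genes was -0.09 and 0.09. In T-only barcodes the cell cycle medians were 0.89 and 0.96, then -0.45 and -0.60. Regulatory T cell genes had a median of 0.55 in members in the first comparison, with 10 of 11 above 0, and 0.05 in the second, beside 0.33 and 0.52 in T-only barcodes.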

How the data were processed

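Droplet single-cell libraries of sorted CD45+ tumor leukocytes were analysed, 1 per treatment. The deposited matrices hold UMI counts per gene and barcode, unnormalized, which the authors made with Cell Ranger. File headers name version 8.0.0 and the methods another, and labels and methods name different genome builds, so no coordinates are given. Library totals were 158570946, 197176873 and 175794959 UMIs, and kept barcodes had median depths of 4774, 5562 and 4273. The same filters left more barcodes here than the study's text reports, and doublets were not removed, since they are the question.

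Samples were grouped by treatment label. Counts were summed per library and kind of barcode. Genes needed 0.05 UMIs per barcode in members or the sum, or 20 UMIs in a pair of libraries; named genes needed 0.1 UMIs in every library's sum and were the 5 highest and 5 lowest of a class, or, between libraries, the 5 highest and lowest of at least 50 CPM. 1 gene named by these rules is not reported here. Rule, mitochondrial, ribosomal, receptor variable, hemoglobin and sex-linked genes were left out. Trbc1 and Trbc2 are near-identical, so their split is uncertain. Shares have Clopper-Pearson, counts exact Poisson, and CPM ratios conditional binomial intervals, at 95%. Ratios to the sum and ratios of member shares have normal approximations on the log scale. Depth ratios have intervals of the members' median, with the pair median held fixed. Members, lists and named-gene rules were chosen with earlier results of these data known. Scripts used Python 3.11.15, numpy 2.4.6, scipy 1.17.1, pandas 2.3.3, scanpy 1.11.5 (Scrublet, seed 1) and matplotlib 3.10.9, and were tested on simulated data.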

Additional observations from a re-analysis of the deposited data

Results flagged for a closer look

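In 4 of the gene lists with at least 5 measured genes, the median log2 ratio of members to the summed single kinds was at least 0.1 above 0 in a library and at least 0.1 below it in another, both directly and relative to the medians of their gene classes. Other lists, such as cytotoxic and interferon response genes, changed sides directly but not by this much relative to their classes. Each library is 1 sample, and the differences between libraries were not tested. Resident and repair macrophage genes had median log2 ratios of -0.17, 0.78 and -0.57 in the mono-IL-10, Trikine and combination libraries, in that order. T cell attracting and inflammatory chemokines had -0.32, 0.44 and -0.44. Inhibitory receptor and exhaustion genes lay at 0.56 in Trikine members and -0.11 in combination members. G2/M phase genes lay at 0.71 in mono-IL-10 members and -0.29 in combination members. With weighted single kinds the last 2 lists no longer met both limits, at 0.11, 0.26 and -0.04 for inhibitory receptors and 0.06, -0.14 and -0.26 for G2/M.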

How the results depend on the processing

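No paired analysis was possible because each group is 1 library. In the order mono-IL-10, IL-10/2-Trikine and combination, the share of members was 6.66%, 4.45% and 3.04% with limits of 10 C1q and 12 T cell UMIs, 8.28%, 5.43% and 4.72% with limits of 3 and 4, 8.37%, 5.42% and 4.26% with at least 500 detected genes, and 1.96%, 1.81% and 1.22% with limits scaled to depth; the order of libraries held in each. Where single kinds held 0 UMIs of the other kind, members over pairs in depth was 1.27, 1.22 and 1.03, macrophage-weighted genes 1.22, 1.17 and 1.02, and T-weighted genes 1.63, 1.54 and 1.11. Genes at least 2-fold above the sum were then 381, 238 and 25, and those below 8 and 3 in the first 2 libraries. Weighting of single kinds, which was chosen after seeing the data, gave a depth ratio of 1.05 and 0.969 in the first 2 libraries, macrophage-weighted genes 1.10, 1.06 and 0.959, T-weighted genes 1.17, 1.12 and 1.05, 17 and 32 genes above the sum in the first 2 libraries, and a Cd8a difference of -10.8 points with the IL-10/2-Trikine, where Cd8b1 gave -15.4. At least 500 genes per barcode gave macrophage-weighted ratios of 1.16, 1.10 and 0.970, and the stricter limits 0.974 and a T-weighted ratio of 1.03 with the combination and 8 genes below the sum with mono-IL-10. Scaling each kind by its class median gave 13 and 23 genes above and 27 and 50 below in the first 2 libraries. With no minimum beyond 20 UMIs, 653, 619 and 277 genes lay above and 202, 576 and 642 below. A minimum of 100 UMIs between libraries gave 178 higher and 229 lower genes in Trikine over mono-IL-10 members, and 94 and 70 with the combination over the IL-10/2-Trikine. These counts rest on fewer or more genes by construction; for other shifts the cause was not tested. No direction reversed for the Cd8a difference under the alternatives run. Depth limits shares of barcodes with a UMI, and 1 library per group leaves variation between mice unmeasured.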

Other observations

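Members with Cd4 and without Cd8 transcripts (336, 365 and 316) were compared with members that had Cd8 and not Cd4 transcripts (791, 338 and 332) for their macrophage genes, per 10000 UMIs. Median log2 differences over 612, 450 and 546 macrophage-weighted genes were -0.04, -0.03 and -0.01. At least 2-fold higher beside Cd4 were 5, 6 and 7 genes, and beside Cd8 7, 3 and 15. Of 398 genes measured in all 3 libraries, Hs3st2, a heparan sulfate enzyme gene, was at least 1.5-fold higher beside Cd4 in each, at 1.89, 2.12 and 1.67 times. Col25a1, a collagen gene, was lower beside Cd4 at 0.616, 0.651 and 0.570 times, Ghr, the growth hormone receptor gene, at 0.464, 0.664 and 0.383 times, and Gm32554 at 0.205, 0.653 and 0.419 times. In the IL-10/2-Trikine library the Gm32554 ratio rested on 10 and 13 UMIs and its interval was 0.256 to 1.61. Hs3st2 there rested on 30 and 12 UMIs, with an interval of 1.06 to 4.55. With the combination it rested on 43 and 26 UMIs, with an interval of 1.003 to 2.83.

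Other pairs of lineages were counted against the product of their shares, with the same limits on its meaning. B cell and macrophage transcripts met at 0.631, 0.473 and 0.533 times the product, T and B cell transcripts at 0.514, 0.419 and 0.515, T cell and KP1 tumor transcripts at 0.387, 0.272 and 0.552, macrophage and KP1 transcripts at 0.345, 0.346 and 0.241, and macrophage and NK transcripts at 0.143, 0.234 and 0.200. With the lineage limits doubled these last 3 pairs were at 0.271, 0.203 and 0.360, at 0.273, 0.237 and 0.262, and at 0.116, 0.226 and 0.0971, and over all other pairs of lineages 6 of 18 values moved outside their 95% intervals. B cell and KP1 transcripts met at 0.169 times it with mono-IL-10, in 2 barcodes, and in 0 barcodes elsewhere, with upper limits of 0.710 and 1.09. NK barcodes were those with at most 2 T cell UMIs, which lowers what they can share with members.

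Mast cell proteases in members came from few barcodes. With mono-IL-10, 1 barcode held 97.5% of 122 Cma1 UMIs and 99.0% of 100 Cpa3 UMIs. With the IL-10/2-Trikine, 1 barcode held 95.8% of 306 Cma1 UMIs, and 224 Mcpt1 UMIs lay in 3 members. Among barcodes with more than 40 Trbc1 and Trbc2 UMIs, the less abundant of these near-identical genes made up at least 20% in 65.8%, 59.6% and 73.4% of members and 55.7%, 49.6% and 59.4% of T-only barcodes. From 21 to 40 UMIs these were 44.4%, 44.8% and 53.6% against 40.8%, 45.7% and 42.9%, and from 10 to 20 UMIs 44.4%, 40.9% and 40.4% against 38.9%, 41.1% and 37.0%, so with the IL-10/2-Trikine members were higher only above 40 UMIs.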
